A study of Mus musculus with 4 samples.

Results

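The cytosolic ribosomal protein genes were read in 4 mouse L1210 cell lines. Members were the array probes whose deposited gene symbol was Rpl or Rps followed by digits and at most 1 letter, or was Rplp0, Rplp1, Rplp2 or Rpsa. Ribosomal S6 kinase genes and symbols of pseudogenes were left out. This gave 80 of 24561 genes, read by 185 of 55681 gene probes. By symbol, 45 belonged to the large subunit, 32 to the small subunit and 3 to the stalk of the large subunit. All 80 symbols were in RefSeq, on 19 chromosomes, and 64 of the 80 carried the Gene Ontology term structural constituent of ribosome, which 124 genes on the array carried.

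L1210 is a lymphocytic leukemia line from a DBA mouse. All 4 lines were infected with lentivirus, sorted for GFP and kept as stable transfectants. L1210-Control carried the control construct, L1210-Fbxw11a the full-length transcript of Fbxw11, a subunit of a ubiquitin ligase, and L1210-Fbxw11c and L1210-Fbxw11d carried transcripts that lack one or both of a pair of early exons. Total RNA of each line was labelled with Cy3 and hybridised to 1 Agilent array, so there was 1 sample per line, no replicate check and no test, and each line is a single sorted culture.

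The ribosome joins a small subunit, which decodes the mRNA, to a large subunit, which forms the peptide bond, and each ribosome needs its proteins in nearly equal numbers. The mRNAs of these proteins usually start with a C and a run of pyrimidines, the terminal oligopyrimidine (TOP) motif, through which mTOR signalling sets how well they are translated. In dividing leukemia cells they are among the most abundant mRNAs. The array reads RNA and says nothing of translation or of protein.

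Signals are array intensities that were divided by the 75th percentile of their array and brought to the scale of the control line. The ± beside a signal is the scanner software's error for 1 spot, which leaves out culture, sorting and labelling. For bright spots it is a fixed share of the signal and not a spread measured for each gene. The arrays of the control, Fbxw11a and Fbxw11c lines, as they are called from here on, shared slide 1. The Fbxw11d line was on slide 2, so slide and variant cannot be told apart in it. The brighter of 2 probes for Fbxw11 itself gave 13153 in the control line, 16343 in the Fbxw11a line, 15898 in the Fbxw11c line and 13432 in the Fbxw11d line, and both probes had log2 ratios between 0.03 and 0.31. The brighter probe was from base 3803 and the other from base 3692, and whether either reads the construct was not tested. These ratios are therefore no measure of expression from the construct, and they do not tell one variant from another. By RT-PCR and western blot, the paper reports high Fbxw11 in the lines that carry its variants. Of 15 lymphoid marker genes, 9 were detected well above background in all lines, among them Ptprc, the B lineage genes Pax5 and Vpreb1 and the T lineage genes Cd3e, Cd4, Cd8a and Lck, as were 6 of 9 macrophage markers and 4 of 9 stromal markers. The median log2 ratios of the lymphoid markers compared were 0.11, 0.11 and -0.17 in the Fbxw11a, Fbxw11c and Fbxw11d lines, those of the macrophage markers -0.23, -0.44 and -0.30, and those of the stromal markers -0.022, 0.06 and 0.17. Over all 15 lymphoid genes, detected or not, the median signal was 29.7, 31.4, 29.8 and 16.9 in the control, Fbxw11a, Fbxw11c and Fbxw11d lines. In the Fbxw11d line, log2 ratios of single lymphoid markers ran from -1.30 to 0.34 and those of macrophage markers from -1.12 to 0.92. The part of these markers in the members' values was not tested.

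The starts of several of these genes show the TOP motif in the reference sequence. RefSeq promoter sequences (GRCm38.p6, 250 bases before to 50 after each annotated start) were found for 59 of the 80 genes, with 71 promoters. A C at the annotated start with at least 4 more C or T after it was present in 13 genes and in 18.3% of their promoters, against 2.51% of all promoters. Of these, 6 are shown from 10 bases before the start, with the run in capitals, followed by Rpl10l and Rpl3l, paralogs with a narrow tissue range, which have none there.
Rpl15 (chr14:18270967-18270996, minus strand): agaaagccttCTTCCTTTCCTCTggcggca
Rpl35 (chr2:39005112-39005141, minus strand): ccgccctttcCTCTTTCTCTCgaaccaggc
Rps10 (chr17:27635225-27635254, minus strand): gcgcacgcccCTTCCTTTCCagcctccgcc
Rps18 (chr17:33955646-33955675, minus strand): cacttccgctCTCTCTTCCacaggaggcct
Rps6 (chr4:86857348-86857377, minus strand): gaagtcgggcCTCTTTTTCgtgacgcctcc
Rpl28 (chr7:4792955-4792984, plus strand): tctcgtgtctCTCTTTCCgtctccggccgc
Rpl10l (chr12:66284382-66284411, minus strand): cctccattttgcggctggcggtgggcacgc
Rpl3l (chr17:24727816-24727845, plus strand): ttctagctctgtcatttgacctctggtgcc

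A run of at least 8 C or T in the last 75 bases of the promoter sequence, on the sense strand, was present in 69.0% of the members' promoters and in 27.2% of all promoters. CCGGAAG on either strand, a core that ETS-family factors bind, was present in 35.2% against 8.86%. GCCATC, a core of YY1 sites, was present in 23.9% against 14.1%, and the E-box CACGTG in 11.3% against 7.15%. TATAA was present in 23.9% against 24.9% of all promoters. None of the 4 motifs contains another, though the reverse complement of the first holds a short run of C and T. A match is a run of letters in a window and not a bound site. The 13 genes with the run at their start had median log2 ratios to the control line of -0.07 in the Fbxw11a line, -0.06 in the Fbxw11c line and -0.22 in the Fbxw11d line, and the other 42 genes with a promoter and a place in the ribosome of most tissues had -0.07, -0.04 and -0.15. The ranges of these groups overlapped in each line.

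Nearly all members were bright on the 4 arrays. Of the 80 genes, 77 had signals well above background on each of the 4 arrays, as did 180 of the 185 probes. No member spot was saturated and none was flagged as an outlier. Apart from 5 paralogs described later (Rpl3l, Rpl10l, Rpl39l, Rps4l and Rps27l), the 75 remaining genes, called the core genes here, had signals from 64144 to 380627 in the control line, from 65858 to 400353 in the Fbxw11a line, from 63440 to 378105 in the Fbxw11c line and from 52549 to 312088 in the Fbxw11d line. The highest mean signals were those of Rpl35, Rps14, Rplp0, Rps10 and Rps23, and the lowest of a core gene was that of Rps21. Signals of different probes also depend on the probe, so their order is not an order of RNA amounts.

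No core gene reached a 2-fold difference from the control line in any variant line. Over the 79 genes compared, 0 reached 2-fold in the Fbxw11a line, where 4.52% of all genes compared did. In the Fbxw11c line 1 gene did, Rps4l, which was higher, where 3.92% of all genes differed in either direction and 1.63% were higher. In the Fbxw11d line 1 gene did, Rpl10l, which was lower, where 6.11% differed in either direction and 4.96% were lower. These comparisons share the array of the control line.

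The median log2 ratio of the 79 members was -0.06 in the Fbxw11a line, beside 0.011 for all genes compared. It was -0.05 in the Fbxw11c line, beside 0.023, and turned to 0.02 when each array was centred on its median. It was -0.17 in the Fbxw11d line, beside 0.05, and turned to 0.05 with centring on the median and to 0.41 with centring on the spike-in RNAs. Those settings shift members and other genes alike, so the median of all genes moved as well, to 0.26 and 0.62 in the Fbxw11d line. Against the median of all genes, the members' median was lower by 0.07, 0.07 and 0.22 in the Fbxw11a, Fbxw11c and Fbxw11d lines. It was below it under all 13 alternatives in each line. Among these, both centrings could hardly change the gap, nor could keeping flagged spots, as no member spot was flagged. They therefore say little about it. The gap was smaller with quantile normalization and with the deposited values, and at its smallest the members' median stood at -0.027, -0.020 and -0.06 from that of all genes in the 3 lines.

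Among the 75 core genes, 54 lay below the control line in the Fbxw11a line, 64 in the Fbxw11c line and 66 in the Fbxw11d line, on the main scaling. Of the 16249 genes measured on all 4 arrays, 48.8%, 45.8% and 43.6% did. The 1-spot error of the log2 ratio was 0.20 for every core gene in each line, so it acts as 1 fixed cut-off. Of the core genes, 2, 2 and 28 lay farther from 0 than this error. Of all genes, 33.7%, 33.3% and 49.8% lay farther from 0 than theirs. Centring on the median adds 0.22 to every log2 ratio in the Fbxw11d line and centring on the spike-in RNAs adds 0.58, so these counts, and the signs of single genes and the order of lines given from here on, are those of the main scaling.

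The subunits were alike in their medians. The 44 large-subunit genes compared had median log2 ratios of -0.08 in the Fbxw11a line, -0.06 in the Fbxw11c line and -0.18 in the Fbxw11d line, and the 32 small-subunit genes had -0.04, -0.04 and -0.14. The 3 stalk genes had -0.026, -0.017 and -0.22.

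**Figure D1:**
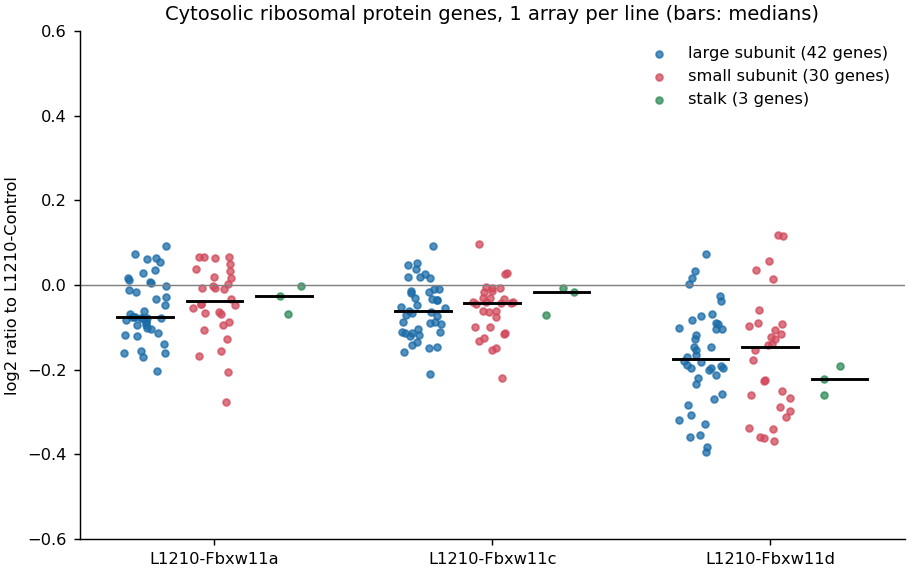
Each point is the log2 ratio of 1 core gene to the control line in 1 variant line, with large-subunit, small-subunit and stalk genes in separate columns and bars at their medians. All points lie between -0.39 and 0.12, far inside 2-fold, and the medians of the Fbxw11d line lie lower than those of the other lines on this scaling, while centring on the array median or on the spike-in RNAs puts the members' median in the Fbxw11d line above 0.

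In the Fbxw11d line the members' median lay below that of the other genes in the brighter classes of signal. Among genes with a signal of 100000 or more in the control line, the 68 members had a median log2 ratio of -0.18 in the Fbxw11d line and the 225 other genes had -0.11. Between 10000 and 100000 the 8 members had -0.11 and the 1980 other genes 0.06. Those 8 members all had 64144 or more in the control line, so the genes were not matched in signal within this class. Between 100 and 1000 the only member, Rps4l, had 0.60 and the 5048 other genes had 0.018. In the Fbxw11a line the medians of the brightest class were -0.05 for members and -0.0020 for other genes, and in the Fbxw11c line -0.06 and -0.024. Across the 75 core genes, Spearman's rho between log2 signal in the control line and the log2 ratio was -0.51 in the Fbxw11d line, 0.31 in the Fbxw11a line and -0.13 in the Fbxw11c line. Over the 385 other genes in the same range of control line signals it was -0.43, -0.04 and -0.27, so a negative value in the Fbxw11d line was found in both groups. Over all 16249 genes measured on the 4 arrays, which span a far wider range of signals, it was 0.08, -0.0019 and 0.08. It is a correlation across genes of the same arrays, with the control line signal on both sides, and genes are not independent replicates. Quantile normalization, which gives all arrays 1 distribution, brought the members' median in the Fbxw11d line to -0.026, beside 0.04 for all genes.

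**Figure D2:**
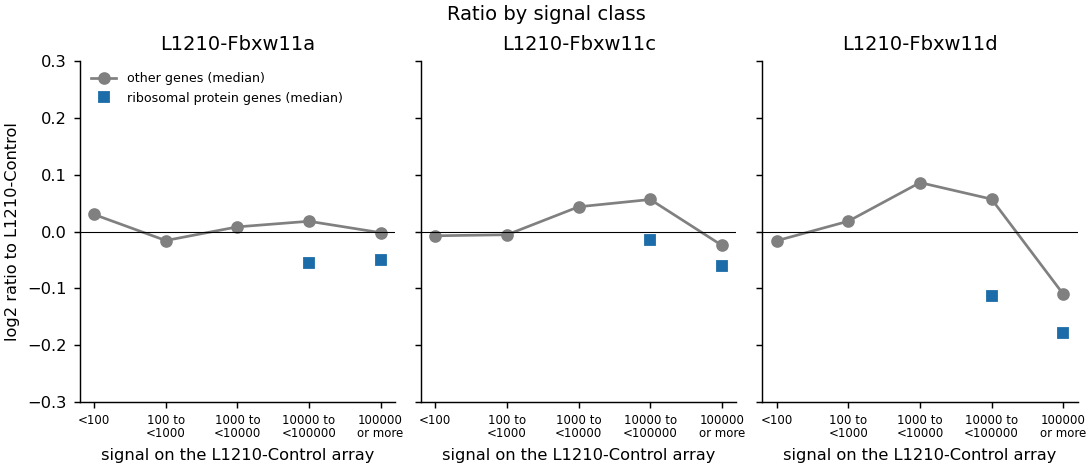
Median log2 ratio to the control line (vertical axis) by class of signal on the array of the control line (horizontal axis), for cytosolic ribosomal protein genes (squares, classes with at least 2 members) and all other genes well above background on all 4 arrays (circles). In the brightest class of the Fbxw11d line the members lie at -0.18 and the other genes at -0.11 on this scaling, which centring on the array median or the spike-in RNAs would move up together.

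The stalk proteins recruit translation factors to the ribosome. Rplp0, the stalk base and a common reference gene, gave 373940 ± 37394 in the control line, 373678 ± 37368 in the Fbxw11a line, 369602 ± 36960 in the Fbxw11c line and 312088 ± 31209 in the Fbxw11d line. Its log2 ratios were -0.0010, -0.017 and -0.26. The first 3 lines lay within the error of 1 spot of each other and the Fbxw11d line lay below them. Rplp1, which binds the stalk base as a dimer with Rplp2, had log2 ratios of -0.026, -0.0065 and -0.19, and Rplp2 had -0.07, -0.07 and -0.22. Rpsa, the small-subunit protein also known as the laminin receptor, had 0.019, -0.06 and -0.30. All 4 genes were lowest in the Fbxw11d line on the main scaling, and with spike-in centring all 4 were highest there, from 0.28 for Rpsa to 0.39 for Rplp1. With quantile normalization Rplp0 was at 0.022 and Rplp2 at 0.0075 in the Fbxw11d line, and with the deposited values at 0.033 and 0.0084. The value of Rpsa there went to -0.11 under both, and it also depended on the probe, since another bright probe, at 265237 in the control line, gave -0.06 and the dimmest gave 0.19.

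Genes that are often used to normalize RT-PCR differed from the control line by at most 0.26 on the log2 scale with the main scaling, the size for Rplp0 in the Fbxw11d line, and by 0.32 for Rplp0 to 0.48 for Rpl19 there with spike-in centring. Rpl13a, a large-subunit protein, gave 150168 ± 15017 in the control line, 142234 ± 14223 in the Fbxw11a line, 129825 ± 12982 in the Fbxw11c line and 135778 ± 13578 in the Fbxw11d line. It was 1.16-fold lower in the Fbxw11c line. That log2 ratio of -0.21, beside a 1-spot error of 0.20, lay inside the error with quantile normalization, median centring, normexp and the deposited values, and was -0.13 for the mean and -0.09 for the median of its probes. Rps18, at the head of the small subunit, had log2 ratios of -0.13, -0.10 and -0.23. Rpl19, a large-subunit protein, had -0.08, -0.03 and -0.10, and its signals ranged from 177403 in the Fbxw11d line to 190741 in the control line.

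Ribosomal protein genes that are mutated in Diamond-Blackfan anemia, an inherited failure of red cell production, differed in sign and size. Rps19, the gene most often mutated in that disease, gave 99483 ± 9948 in the control line, 96473 ± 9647 in the Fbxw11a line, 106415 ± 10642 in the Fbxw11c line and 107774 ± 10777 in the Fbxw11d line. Its log2 ratios were -0.04, 0.10 and 0.12, all inside the 1-spot error. Rpl5, which with Rpl11 and the small ribosomal RNA of the large subunit binds Mdm2 and so restrains the loss of p53, gave 82715 ± 8271, 76186 ± 7619, 74126 ± 7413 and 72233 ± 7223 in the same order of lines. Rpl11 gave log2 ratios of 0.012, -0.09 and -0.31, Rps26, at the mRNA exit, -0.0026, 0.027 and -0.06, and Rpl35a -0.07, -0.016 and -0.04. Rps27a, which is made as a fusion with ubiquitin and so supplies both proteins, had -0.05, -0.08 and -0.27.

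By the median over the variant lines, the lowest core genes included Rps15, Rpl12, Rpl5 and Rps9, and the highest members were Rps4l, Rps27l, Rps19, Rpl31 and Rps14. Rps15, which is needed for export of the small subunit from the nucleus, gave 100038 ± 10004 in the control line, 82557 ± 8256 in the Fbxw11a line, 85932 ± 8593 in the Fbxw11c line and 104027 ± 10403 in the Fbxw11d line. It was 1.21-fold lower in the Fbxw11a line and 1.16-fold lower in the Fbxw11c line, and 1.04-fold higher in the Fbxw11d line. Its second probe, of lower signal, had log2 ratios of -0.15, -0.07 and -0.08. Rpl31, at the peptide exit, had 0.09, 0.09 and 0.03 on the probe used and -0.11, -0.07 and -0.08 on another bright probe, so the direction depended on the probe. Rpl12, at the base of the stalk, had -0.16, -0.03 and -0.21, Rps9 -0.17, -0.11 and -0.15, and Rps14, at the platform of the small subunit, 0.07, 0.03 and -0.23. The lowest log2 ratio of a core gene in any line was that of Rpl9 in the Fbxw11d line, -0.39, and the highest was that of Rps7 there, 0.12, both named after their values were seen.

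Members differed in how far they ranged over the 4 lines. The range from the lowest to the highest line had a median of 0.20 on the log2 scale over the 77 members measured on all 4 arrays, which is 1.15-fold, against 0.35 over the 16249 genes measured on all 4. With spike-in centring these medians were 0.64 and 0.87, and with quantile normalization 0.14 and 0.35. On the main scaling the range was narrowest for Rpl35a, at 0.07, and widest among core genes for Rpl35, at 0.43. The order of these genes turned with median centring, to 0.26 for Rpl35a and 0.20 for Rpl35, and with spike-in centring, to 0.74 and 0.39. A range of 1 or more was found on the main scaling in 1 member, Rps4l, and in 8.39% of all genes. The mitochondrial ribosomal protein genes, 77 of them, had a median range of 0.22. Without the Fbxw11d line the median range was 0.09 for the members and 0.23 for all genes. The Fbxw11d line was the lowest line for 57 of the 77 members and the highest for 9, whereas it was lowest for 28.1% and highest for 35.7% of all genes. The control line was the highest line for 43 members (55.8%) and for 20.6% of all genes. These orders hold on the main scaling.

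Both members at 2-fold were paralogs, Rps4l and Rpl10l. Rps4l, a paralog of the small-subunit gene Rps4x, gave 225 ± 22.9 in the control line, 200 ± 20.2 in the Fbxw11a line, 476 ± 47.7 in the Fbxw11c line and 341 ± 34.1 in the Fbxw11d line. The Fbxw11c line and the Fbxw11d line were higher than the other two lines by more than the error of 1 spot. The ratio to the control line was 1.13-fold lower in the Fbxw11a line, 2.11-fold higher in the Fbxw11c line and 1.51-fold higher in the Fbxw11d line. In the Fbxw11c line the log2 ratio of 1.08 went to 0.92 with centring on the spike-in RNAs and to 0.96 with normexp background correction, both under 2-fold, and over 12 alternatives it lay between 0.92 and 1.15. The log2 ratio of 0.60 in the Fbxw11d line went to 0.82 with median centring and to 1.18 with spike-in centring, which is 2.27-fold, so with spike-in centring the line past 2-fold was the Fbxw11d line and not the Fbxw11c line. On the main scaling, the Fbxw11c line was 2.38-fold higher than the Fbxw11a line. No other member differed by 2-fold between variant lines on that scaling. Of all genes, 4.24% differed by 2-fold between the Fbxw11c and Fbxw11a lines and 1.6% were higher. There, 0 members reached 2-fold between the Fbxw11d and Fbxw11a lines, where 6.13% of all genes did. Between the Fbxw11d and Fbxw11c lines 0 did, where 4.37% of all genes did. With spike-in centring these counts do not hold. Rps4l then had -0.30 in the Fbxw11a line and 1.18 in the Fbxw11d line. Rps15, at 0.33 and 0.28 in these comparisons, also passes 2-fold in both. That centring adds 0.58 in the Fbxw11d line, -0.13 in the Fbxw11a line and -0.16 in the Fbxw11c line. Rps4x had log2 ratios of -0.07, -0.04 and -0.11.

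The first 30 bases of the 60-base probes of Rps4l and Rps4x show that they were read at different sequences (mm9 coordinates of the whole probe, as given for the array). The Rps4l probe shares no run of more than 10 bases with a probe of another member. The Rps4x ratios just given are those of its probe from base 707, which the array placed on chromosome 3.
Rps4l, from base 865 of its transcript (chr6:148304043-148304102): ggggaaggggcgtttacgtttgtttatact
Rps4x, from base 707 (chr3:112105991-112106050): atggatctctcttccctgagaaaaaggaat
Rps4x, from base 858 (chrX:99380274-99380333): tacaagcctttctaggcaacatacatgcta

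Rpl10l and Rpl3l were near the background. Rpl10l, which stands in for the X-linked Rpl10 during male meiosis, gave 24.7 ± 4.52 in the control line and 11.5 ± 2.38 in the Fbxw11d line, and was not well above background in the Fbxw11a line and the Fbxw11c line, at 11.0 and 13.8. It was 2.15-fold lower in the Fbxw11d line and at least 1.72-fold and 1.66-fold lower in the other two. Those bounds, -0.78 and -0.73 on the log2 scale, went to -0.29 and -0.30 with normexp background correction. The log2 ratio of -1.11 in the Fbxw11d line, with a 1-spot error of 0.40, went to -0.90 with quantile normalization, -0.82 with cyclic loess and -0.89 with median centring, so the 2-fold call ended under each of them, and to -0.52 with spike-in centring. Its second probe did not clear background on any array. Rpl3l, a heart and skeletal muscle form of Rpl3, gave 29.1 ± 5.01 in the control line, 27.7 ± 4.34 in the Fbxw11a line and 28.7 ± 3.54 in the Fbxw11d line, and was at least 1.95-fold lower in the Fbxw11c line, where its signal did not clear the background. That bound, -0.97 on the log2 scale, went to -0.34 with normexp background correction. Rpl39l, a form enriched in testis, stayed near background in all 4 lines.

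Rps27l was bright, unlike the other paralogs. Rps27l, a target gene of p53 and paralog of Rps27, gave 86465 ± 8647 in the control line, 89222 ± 8922 in the Fbxw11a line, 92710 ± 9271 in the Fbxw11c line and 97983 ± 9798 in the Fbxw11d line. Its log2 ratios were 0.05, 0.10 and 0.18, within the 1-spot error of 0.20. Rps27 had -0.11, -0.11 and -0.26, Rpl3 -0.06, -0.15 and -0.38, Rpl10, which is needed to join the subunits, -0.09, -0.11 and -0.19, and Rpl39, at the peptide exit, -0.20, -0.05 and -0.09.

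**Figure D3:**
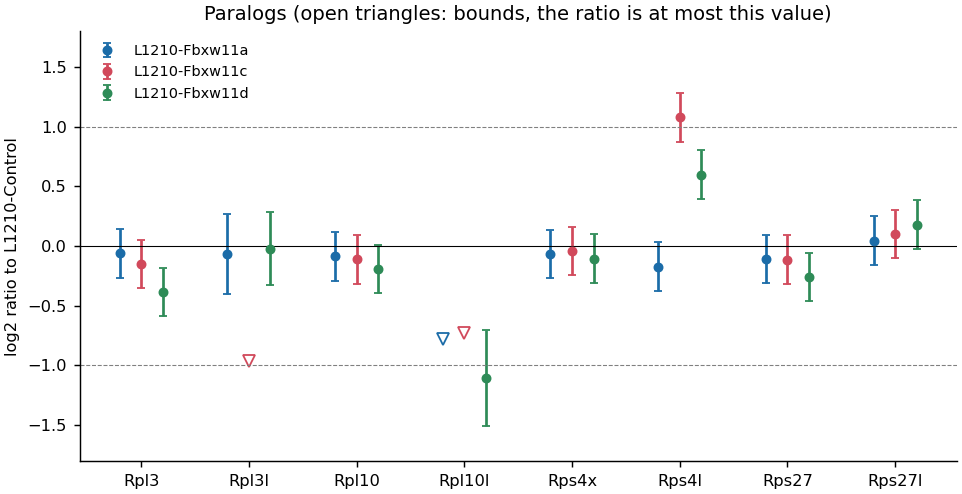
Log2 ratio to the control line of 4 paralogs, each to the right of the gene it resembles, in the 3 variant lines, with bars for the error of 1 spot and open triangles for bounds, where the true ratio is at most the value shown. Dashed lines mark 2-fold. Rps4l lies at 1.08 in the Fbxw11c line and Rpl10l at -1.11 in the Fbxw11d line, and the other measured points lie inside 2-fold.

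Of the members, 60 had 2 or more probes, up to 7 for a gene. Bright probes of a gene (20000 or more in the control line) mostly gave the same ratio: for the 54 genes with at least 2 such probes the median SD between probes was 0.05 in the Fbxw11a line, 0.04 in the Fbxw11c line and 0.09 in the Fbxw11d line on the log2 scale. The highest SD of a gene was 0.26, 0.28 and 0.32. In the Fbxw11d line, bright probes of Rpl11 lay from -0.31 to -0.05, those of Rpl28 at 0.18 and -0.07, and those of Rpl17 from -0.26 to 0.09, so the values given for such genes hold for the probe used. A probe of Rps24 and one of Rpl36, which lay apart in all 3 variant lines, are given in full, and all of these genes were picked after their values were seen.

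Rps24, a small-subunit protein whose mRNA is known for alternative short exons near the end of the coding sequence, had 4 probes. The probe from base 444 of the transcript gave 125172 in the control line, 170596 in the Fbxw11a line, 175643 in the Fbxw11c line and 161894 in the Fbxw11d line. All 3 variant lines were higher than the control line, with log2 ratios of 0.45, 0.49 and 0.37. The probe from base 356 had -0.15, -0.15 and -0.19, the probe from base 527 had 0.0073, 0.0070 and -0.18, and the brightest probe, from base 2706 of another transcript, had 0.017, -0.04 and -0.36.

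The probe from base 444 was the only one of 64 probes, in the 18 members with at least 3 bright probes, that lay 0.4 or more above the median of its gene's bright probes on the main scaling, and it did so in each line. The 3 ratios share the 1 spot of the control line, and the limit of 0.4 was set after the values were seen. Among 121 probes of 35 other genes with at least 3 bright probes, 0 did. Its distance from that median lay between 0.43 and 0.60 over the 3 lines with the main scaling and 6 other normalizations. Median and spike-in centring shift all probes of a line alike, so they cannot change this distance and do not test it. The array annotation lists 1 RefSeq mRNA for this probe, 3 each for the probes from bases 356 and 527 and 0 for the brightest probe, from base 2706, and places its 60 bases over a stretch of 2321 bases of mm9. The probes from bases 356 and 444 begin as follows.
Rps24, from base 356 (chr14:25311190-25312666): tggccattatgagaagaaaaagacctcccg
Rps24, from base 444 (chr14:25312695-25315015): aatgttggtgctggcaaaaagtgagtggag

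Rpl36, a large-subunit protein, had a like pair at nearly the same place. The probe from base 349 gave 143230 in the control line, 174879 in the Fbxw11a line, 174693 in the Fbxw11c line and 163809 in the Fbxw11d line, with log2 ratios of 0.29, 0.29 and 0.19. The probe from base 352 gave 211770, 207589, 201261 and 184808, with log2 ratios of -0.03, -0.07 and -0.20. The first was higher in every variant line than in the control line and the second lower, on the main scaling. The probe from base 349 lay 0.31 to 0.41 above the median of the gene's bright probes over the 3 lines and all 7 settings. Median and spike-in centring cannot change this distance either. The 2 probes end at the same genome position and differ by a run of 3 bases, in capitals here, which the probe from base 349 lacks.
Rpl36, from base 352 (chr17:56753615-56753674): ggcggcggccaagAAGgattgatgaaccct
Rpl36, from base 349 (chr17:56753612-56753674): gaaggcggcggccaaggattgatgaaccct
Whether these 2 probes read a transcript form, a sequence difference or a property of the probe was not tested.

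**Figure D4:**
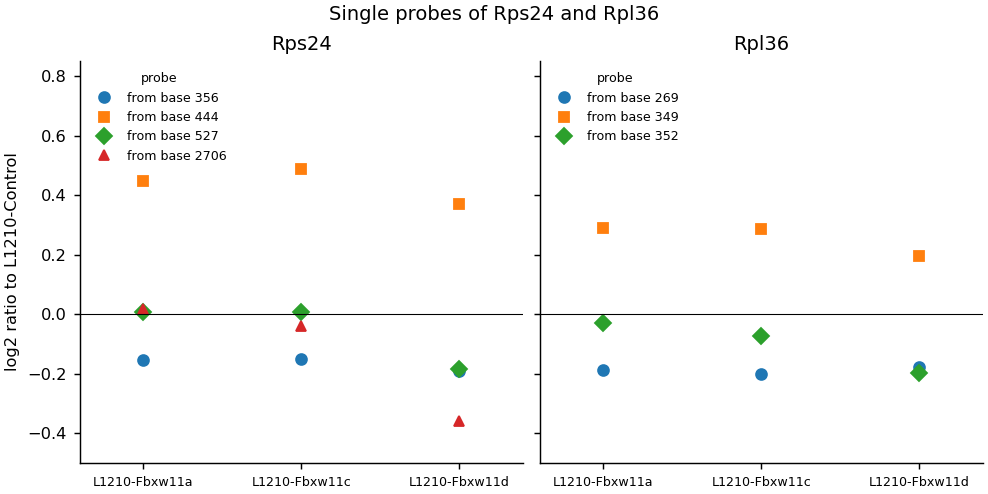
Log2 ratio to the control line of each probe of Rps24 (left) and Rpl36 (right) in the 3 variant lines, 1 marker per probe, named by its first base in the transcript. The Rps24 probe from base 444 lies at 0.45, 0.49 and 0.37 and the Rpl36 probe from base 349 at 0.29, 0.29 and 0.19, above the other probes of their genes in each line.

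All probes of Rps24 and Rpl36 were bright, whereas some members had a dim probe beside bright ones, which gave another ratio in the Fbxw11d line. In 19 core genes at least 1 probe well above background on all 4 arrays had a signal under 20000 in the control line beside at least 1 bright probe. The dim probes were higher in ratio than the bright probes of the same gene in 18 of 19 genes in the Fbxw11d line, by a median of 0.26 on the log2 scale, and in 13 of 19 in the Fbxw11a line and in the Fbxw11c line, by 0.05 and 0.11. Rpl22, a large-subunit protein that also has a role in T cell development, had log2 ratios in the Fbxw11d line of -0.20 on its probe of 116524 and 0.47 on its probe of 813. Rpl6 had -0.36 on its brightest probe and 0.56 on a probe of 61.4. Rpl13a had -0.15 on its brightest probe and -0.06 and -0.015 on probes of 18252 and 15537. With quantile normalization the dim probes were higher in 11 of 19 genes in the Fbxw11d line, by a median of 0.13, and with the deposited normalized values in 12 of 19, by 0.13. What part of the lower ratios of bright probes in the Fbxw11d line is RNA and what part is signal range was not tested.

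**Figure D5:**
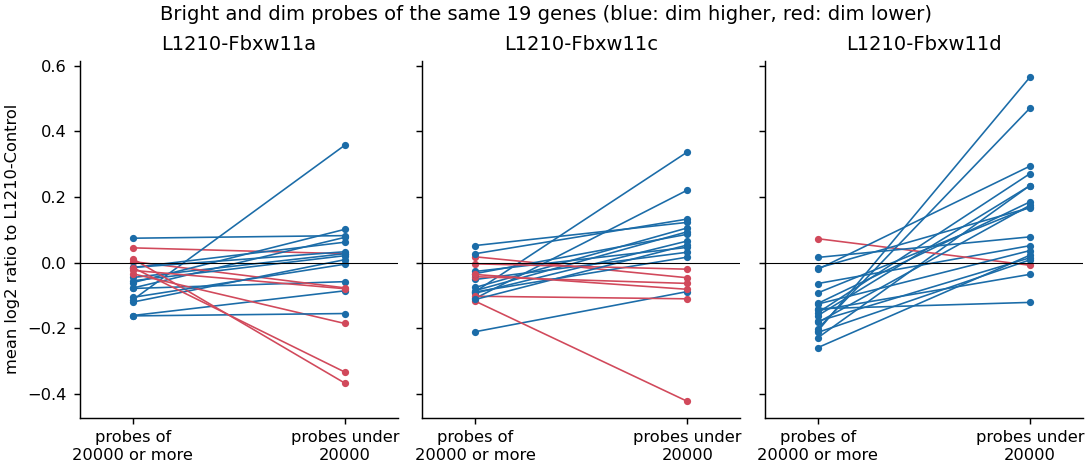
Mean log2 ratio to the control line of the bright probes (20000 or more) and of the dim probes (under 20000) of the same 19 genes, joined by a line per gene, blue where the dim probes are higher and red where they are lower. In the Fbxw11d line 18 of 19 lines go up, against 13 of 19 in each of the other lines, and 11 of 19 go up in the Fbxw11d line after quantile normalization.

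A probe of Rpl23 was printed on 10 spots and gives the spread within an array. Its signal was 2639 ± 129 (SD, n = 10 spots) in the control line, 2508 ± 202 in the Fbxw11a line, 2727 ± 148 in the Fbxw11c line and 2714 ± 238 in the Fbxw11d line. The ranges of 1 SD overlapped between all lines. The brightest Rpl23 probe had log2 ratios of -0.015, -0.03 and -0.07.

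Members have many processed copies in the genome, and the array placed 15 probes of 9 genes on a chromosome other than the gene's own, and 1 probe of Rps3 on none. All 4 probes of Rps27 were placed on chromosome 9 and not 3, and all 3 of Rps29 on chromosome 2 and not 12. The probes that stand for Rpl21, Rplp1 and Rps4x were among these. Signal of gene and copy could not be told apart on such probes. The second Rps4x probe, on chromosome X, gave log2 ratios of -0.09, -0.0031 and -0.05, beside -0.07, -0.04 and -0.11 on the one placed on chromosome 3.

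Related genes were taken from lists written from general knowledge. In each of 4 lists, 0 genes reached 2-fold in any variant line, where 4.52%, 3.92% and 6.11% of all genes did. Spike-in centring gave 4 mitochondrial and 2 biogenesis genes in the Fbxw11d line, where it put 12.4% of all genes at 2-fold. The 77 mitochondrial ribosomal protein genes, whose ribosomes translate the genes of mitochondrial DNA, had median log2 ratios of 0.07 in the Fbxw11a line, 0.10 in the Fbxw11c line and 0.15 in the Fbxw11d line. They stood above the median of all genes in each line under all 6 other normalizations, while the cytosolic genes stood below it. Median and spike-in centring shift all genes alike, so they say little about this order. The signs of both medians turned on some scalings, since the mitochondrial median was -0.06 in the Fbxw11a line and the Fbxw11c line with spike-in centring. The mitochondrial genes had a median signal of 14730 in the control line, in a dimmer class than the cytosolic genes at 201181.

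The 50 ribosome biogenesis genes, which build, process and export the subunits, had medians of -0.05 in the Fbxw11a line, 0.06 in the Fbxw11c line and 0.11 in the Fbxw11d line, and the value in the Fbxw11c line turned to -0.09 with spike-in centring. Ncl, nucleolin, had log2 ratios of -0.14, 0.03 and 0.25, and Npm1, nucleophosmin, had -0.12, 0.03 and -0.22. The 23 other TOP mRNAs and translation factors on the array had medians of -0.016, -0.04 and -0.11. In the Fbxw11d line that median turned to between 0.016 and 0.48 with quantile normalization, median centring, spike-in centring, normexp and the deposited values, and in the Fbxw11c line it turned to between 0.0012 and 0.04 with quantile normalization, median centring and the deposited values. In the Fbxw11a line it turned to 0.016 with normexp. In the Fbxw11d line, 9 of the 23 were higher than the control line on the main scaling. Hnrnpa1, a splicing factor, had log2 ratios of 0.30, 0.25 and 0.39, and the initiation factor subunit Eif3e had 0.0082, -0.04 and 0.30, both named after their values were seen. Fau, which encodes a ribosomal protein fused to a ubiquitin-like protein and falls outside the symbol rule, had -0.0049, -0.06 and -0.32. Eef1a1, the elongation factor that brings aminoacyl-tRNA, had -0.08, -0.08 and -0.26.

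Of 16 genes that govern ribosome synthesis, 14 were compared, and their medians were -0.03, -0.021 and -0.05. With median centring those of the Fbxw11c and Fbxw11d lines turned to 0.05 and 0.17, and with spike-in centring that of the Fbxw11d line turned to 0.53. Myc, which drives transcription of ribosomal components, gave 11006 in the control line, 10373 in the Fbxw11a line, 11544 in the Fbxw11c line and 9627 in the Fbxw11d line. Mtor, the kinase above TOP translation, gave 1160, 1537, 1113 and 1165, and was highest in the Fbxw11a line, at a log2 ratio of 0.41. Larp1, which binds TOP mRNAs, had 0.13, 0.23 and 0.03. All of these lay inside 2-fold.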

How the data were processed

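The authors deposited the scanner output of 4 Agilent 1-colour arrays, with a background-subtracted intensity per spot, and a table of normalized log2 values whose method is not given in the sources used here. The submitters' notes name Agilent Feature Extraction 9.1. Processed intensities were divided by the 75th percentile of the gene spots of their array and taken to log2. Flagged spots (102 to 167 per array) were left out and replicate spots averaged. The brightest probe stood for each gene. A probe was compared if well above background (at least 0.5 of its spots) on at least 1 of the 2 arrays, with the detection limit as a bound. Named genes were the members at 2-fold, the 5 highest and lowest by median ratio and by signal, paralogs with their main copies, stalk genes with Rpsa, RT-PCR reference genes, Diamond-Blackfan and p53-linked genes, Rps27a, and members whose probes differed in sign at 2-fold. Some genes that this rule names are not reported here. Members, lists and probes were chosen with earlier results of these data known. The number of arrays limits the precision. Scaling and calls were also run on simulated data with known folds. Normalization alternatives used limma 3.58.1 in R 4.3.3, with pandas in Python for the rest.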

Additional observations from a re-analysis of the deposited data

How the results depend on the processing

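With 1 array per line, no difference has a replicate check. No paired analysis was possible because each group held 1 sample. Of the counts of members at 2-fold, that for the Fbxw11a line (0) went to 1 without a filter on dim probes and at a 1.5-fold threshold. That for the Fbxw11c line (1) went to 0 with normexp and at 3-fold, to 2 without the filter and to 3 at 1.5-fold. That for the Fbxw11d line (1) went to 0 with quantile normalization, cyclic loess, median centring, normexp, the deposited values, the median of probes and at 3-fold, and to 2 without the filter and at 1.5-fold. All genes compared were at 2-fold in 1.22% and 2.71% of cases in the Fbxw11c and Fbxw11d lines with normexp, in 5.26% to 5.87% in the Fbxw11d line with the other settings that gave 0, and in 8.16%, 7.48% and 11.3% in the 3 lines without the filter. They were at 1.5-fold in 10.9%, 9.99% and 15.5%, and at 3-fold in 1.71% and 2.15% in the Fbxw11c and Fbxw11d lines. With spike-in centring the single gene called was Rpl3l in the Fbxw11c line and Rps4l in the Fbxw11d line. The median log2 ratio moved with spike-in centring to -0.19 in the Fbxw11a line, -0.21 in the Fbxw11c line and 0.41 in the Fbxw11d line, and with median centring to 0.021 in the Fbxw11c line and 0.048 in the Fbxw11d line. With quantile normalization it was -0.0065 in the Fbxw11c line and -0.026 in the Fbxw11d line, and with the deposited values -0.0045 and -0.019. The median range over lines (0.20) became 0.14 with quantile normalization and with the deposited values, 0.64 with spike-in centring and, added after seeing the data, 0.092 without the Fbxw11d line. The remaining alternatives kept each median below 0. Spike-in and median centring add 1 constant to all ratios of a line, so they are left out of the next counts. Over the 10 other alternatives, 38 log2 ratios of named genes moved by more than their 1-spot error and 947 did not. Of their ranges over the lines, 94 moved by more than the spread between probes and 216 did not. Low signal limits Rpl3l, Rpl10l and Rpl39l.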
